A study of Mus musculus with 10 samples.

Results

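Cluster 12 is a group of colonic cells that came almost only from normal mice. Its members were the cells that the deposited annotation names 12_other. There were 94 of them among 3065 annotated colonic cells and among 25204 annotated cells of the whole series. The library of colonic crypts from normal mice held 93 of the 94, which was 8.22% of its 1132 cells (exact binomial 95% interval 6.68 to 9.97). The library of colonic crypts from mice treated with DSS held 1 cell in 1933, or 0.0517% (0.00131 to 0.288).

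Dextran sulfate sodium (DSS) is a chemical that damages the colonic epithelium when mice drink it. The series combines single-cell RNA sequencing of cultured intestinal organoids with these 2 colonic libraries, and only the colonic libraries are described here. The normal library is 1 sample and the DSS library is 1 sample, so no test between them was possible and every interval given here covers counting error only. Strain, number of animals, day of sampling and the way the colonic crypts were taken apart are not given in the sources used here for these 2 libraries. The kept cells held 19906845 UMIs (unique molecular identifiers, which count captured transcripts) in the normal library and 32397122 in the DSS library.

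The libraries also differed in sex-linked transcripts. Xist, the RNA that silences an X chromosome in female cells, had a UMI in 86.4% of the normal cells and in 3 of the DSS cells. Eif2s3y, a Y-linked gene, had 0 UMIs in the normal library and a UMI in 54.4% of the DSS cells. Within cluster 12, Xist was found in 64 of the 93 normal cells, while the DSS cell held 1 Eif2s3y UMI and 0 Xist UMIs. The study states that female mice were used for its colitis model. Treatment, sex and library therefore cannot be told apart in any difference between normal and DSS cells.

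The epithelium of the colon renews itself along the axis of its crypts. Stem cells at the crypt base divide, their daughters become absorptive colonocytes or secretory cells as they move upward, and the oldest colonocytes sit at the surface, facing the lumen, before they are shed. Surface colonocytes are known for chloride, sodium and water transport, for a brush border with a thick glycocalyx, and for defence against bacteria.

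Cluster 12 held little RNA per cell. Its normal cells had between 1009 and 20098 UMIs, with a median of 5847, which was 0.318 of the median of their library (18374.5). They had a median of 1688 genes, and 31 of the 93 cells had fewer than the 1500 genes that the study names as its minimum. Mitochondrial UMIs made up 0.694 to 19.8% of a cell (median 15.5%), against a median of 9.49% in the other normal cells. Ribosomal protein genes made up a median of 1.54%, against 14.9%. Malat1, a long noncoding RNA that stays in the nucleus, was at 29070 CPM, against 6692. CPM here is the number of UMIs of a gene per 1000000 UMIs of the summed cells. These 4 quantities set cluster 12 apart from the other normal cells in every comparison made with them, and their part in the results was not tested.

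The leading 20 genes of the cluster included 4 of the 14 surface colonocyte markers, Aqp8, Car4, Clca4a and Saa1. UMIs were summed over the 93 normal cells and over the other 1039 normal cells, and ratios were taken after adding 1 CPM. The cluster was built from the same counts, so the ratios describe it and are no test. Aqp8, a water channel of surface colonocytes (chr7:123462291-123468004, plus strand, GRCm38), ranked first. It was at 3060 CPM (1910 UMIs, exact Poisson 95% interval 2924 to 3200) and at 25.7 CPM in the other cells. A UMI of Aqp8 was present in 96.8% of the cells of cluster 12. The share was 92.0% once each cell was thinned to 2000 UMIs, which left out 6 shallower cells. In cluster 0, a leukocyte-rich cluster of the same library (median 3693 UMIs) that should lack the gene, the thinned share was 3.50%.

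Of the leading 20, 6 encode transport proteins, channels or their partners, a grouping made after the genes were seen. Besides Aqp8, Car4, a membrane-bound carbonic anhydrase, was at 5134 CPM against 219 and had a UMI in all 93 cells. Clca4a, a chloride channel accessory protein (chr3:144952480-144975045), was at 1685 against 42.7. Slc34a2, a phosphate transporter, was at 328 against 4.46. Atp12a, the colonic proton and potassium pump, was at 503 against 14.1, but its UMIs were in 45.2% of the cells only (37.9% thinned, against 2.80% in cluster 0). Slc15a1, the peptide transporter PEPT1, was at 159 against 6.02.

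Genes known for defence were also among the leading 20. Saa1, an acute phase protein that epithelium also makes (chr7:46740497-46742980), was at 11186 CPM against 428 and was detected in all 93 cells, also after thinning, against 23.8% of cluster 0 before thinning. Duox2, an oxidase that releases hydrogen peroxide at the cell surface, was at 862 against 22.9. Duoxa2, the maturation factor of Duox2 and its neighbour on chromosome 2, was at 1214 against 27.3. Further genes were interferon-inducible. Slfn4 was at 3202 against 153, Ifit1bl1 at 2207 against 94.4, and Gbp2, a guanylate-binding protein, at 128 against 6.69.

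The remaining 8 of the 20 were 2010109I03Rik (4051 against 78.9 CPM), Selenop (1887 against 96.8), Sectm1b (804 against 33.3), Tmem37, Cpn1, Plekhg6, Cyp2d9 and Ppm1j. Selenop encodes a selenium carrier protein. The last 5 of these lay between 127 and 405 CPM in cluster 12 and between 3.53 and 15.4 CPM in the other cells. At the low end, the peptide hormone Pyy, the potassium channel subunit Kcne3, the claudin Cldn15, the nucleosome-binding protein Hmgn1 and the ion pump regulator Fxyd3 had 0 UMIs in cluster 12, while they lay between 133 and 164 CPM in the other normal cells.

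Of 7980 genes with at least 10 CPM in either group, 336 were at least 4-fold higher in cluster 12 (4.21%) and 1874 were at least 4-fold lower (23.5%). The median log2 ratio of all these genes was -0.65, so a typical gene lay below the other cells on this scale. The median of ratios, another scaling, differed from CPM by -0.54 on the log2 scale and brought the median of all genes to -0.13. It gave 641 higher and 1403 lower genes, so that the higher genes rose from 15.2% to 31.4% of those past 4-fold.

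The marker lists of the colonic surface stood high. A list was read at 2-fold, a bound that 13.4% of all genes passed upward and 42.0% downward. Of 14 surface colonocyte markers, 13 were at least 2-fold higher, 0 were lower, and the median log2 ratio was 2.53. Slc26a3, the chloride and bicarbonate exchanger of absorptive colonocytes, was at 806 CPM against 206. Krt20, a keratin of the upper crypt and surface, was at 2944 against 554. Guca2a, which encodes guanylin, was at 8581 against 2166. Ceacam20, an adhesion molecule of the brush border, was at 639 against 66.6. The exception was the phosphate transporter Slc20a1, at 260 against 177 CPM (log2 ratio 0.55). All 10 pan-epithelial markers were detected, 3 of them at least 2-fold higher, and Epcam had a UMI in every cell. By these markers the cluster was surface colonocyte-like. Its median UMI count was low for its library (a ratio of 0.318), and the surface markers Aqp8, Clca4a and Saa1 stood among its leading 10 genes.

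Most markers of the crypt base and of other lineages were low or at 0, with the exceptions given after them. All 7 tested stem cell markers were at least 2-fold lower, and Lgr5, Ascl2, Smoc2, Axin2, Cdca7 and Lrig1 were at 0 UMIs. Lgr5 was rare in the other normal cells as well, at 3.27 CPM. With 624256 UMIs in the sum, a count of 0 allows a level of up to 4.81 CPM (3 UMIs). All 9 cycling markers were lower. Goblet markers were lower in 11 of 12 cases. Muc2, the main secreted mucin, was at 43.3 CPM against 1661, and Agr2, a folding enzyme of mucin-making cells, at 9.61 against 1725. Of the 12 tuft cell markers 11 were at 0, as were 5 of the 6 Paneth cell markers and 8 of the 12 enteroendocrine markers. The 7 pan-leukocyte markers summed to 33.6 CPM against 244 in the other cells. The 10 T cell markers summed to 70.5 CPM, and no marker among them was found in more than 3.23% of the cells. The 8 neutrophil, 11 B cell, 8 dendritic cell and 8 fibroblast markers were all at 0 UMIs. The 5 red cell genes summed to 52.9 CPM against 7.31, and both of those tested were at least 2-fold higher. A member at least 2-fold higher was also found in lists of immune cells whose other members were mostly at 0. The innate lymphoid list was not low, summing to 551 CPM against 583, most of it from the growth factor Areg (479 against 565). Plac8, of the monocyte list, was at 5352 CPM against 1864 and was detected in all 93 cells, while the other 5 monocyte markers were at 0. Prdm1, of the plasma cell list (6 of 10 at 0), rested on 9 UMIs and Fas, of the germinal centre B cell list (3 of 6 at 0), on 8.

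**Figure D1:**
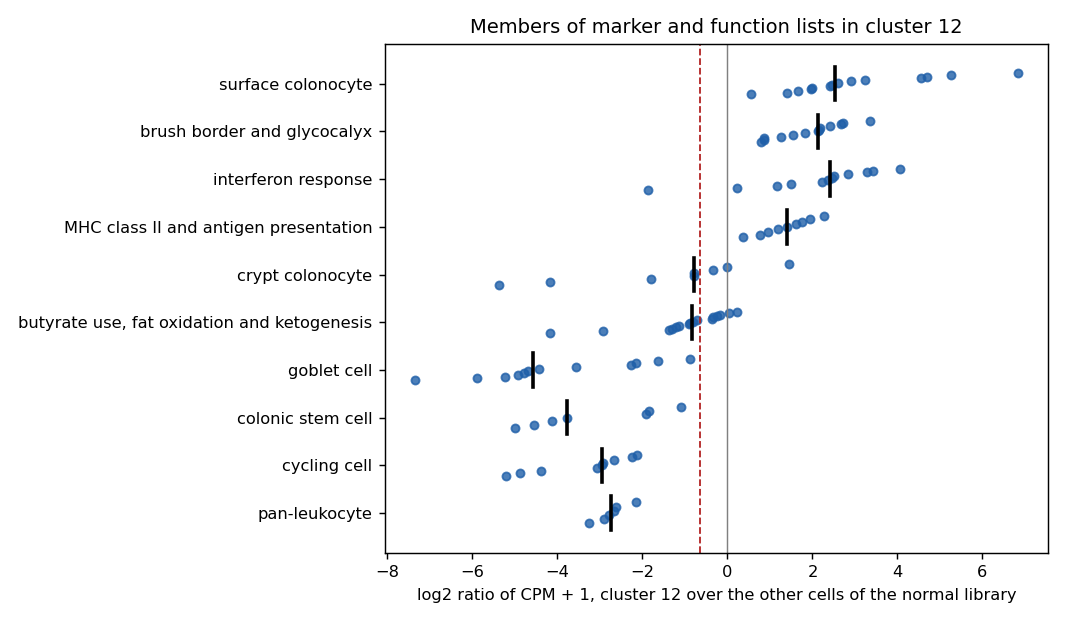
Each point is 1 gene of a list, placed by its log2 ratio of CPM + 1 between the 93 normal cells of cluster 12 and the other 1039 cells of the normal library. Black bars are list medians and the dashed line is the median of all 7980 tested genes (-0.65). Surface colonocyte, brush border and interferon genes lie mostly to the right of 0, and goblet, stem and cycling genes to the left.

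Genes of the crypt colonocyte list moved much as genes did in general. Of 8 crypt colonocyte markers, 1 was at least 2-fold higher and 3 were lower, with a median log2 ratio of -0.79, close to the shares and the median of all genes. Car1, a cytosolic carbonic anhydrase of the colon, was at 1772 CPM against 6193. Sult1a1, a sulfotransferase, was at 6.41 against 309. Fabp2, a fatty acid binding protein, was the higher one, at 3987 against 1457. In a separate list for butyrate use, fat oxidation and ketogenesis, 0 of 16 genes were higher and 6 were lower, the latter again near the share of all genes. With the median of ratios 2 of the 16 were lower. Hadha, a subunit of the mitochondrial trifunctional protein, was at 232 against 225.

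Of 17 ion and water transport genes tested, 8 were at least 2-fold higher, against 13.4% of all genes. The 6 that were lower are near the 42.0% of all genes. The median log2 ratio was -0.01, or 0.53 with the median of ratios. The higher ones were Aqp8, Car4, Atp12a, Slc26a3, the sodium and proton exchangers Slc9a3 (402 against 50.6 CPM) and Slc9a2 (497 against 78.9), their scaffold Slc9a3r1 (1110 against 180) and Scnn1a (258 against 37.1), a subunit of the epithelial sodium channel. The other channel subunits Scnn1b and Scnn1g had 0 UMIs. The lower ones were Car1, Car2, the basolateral bicarbonate transporter Slc4a4, the water channel Aqp4 (4.81 against 440), and the chloride secretion genes Cftr and Kcne3, both at 0 UMIs against 50.5 and 161 CPM.

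Of 13 genes of the brush border and glycocalyx, 10 were at least 2-fold higher and 0 were lower. Cdhr2 and Cdhr5, the protocadherins that link microvilli at their tips, were at 1330 against 129 CPM and at 2099 against 317. Their motor Myo7b was at 292 against 45.1. The membrane mucins Muc3 and Muc13 were at 5664 against 1258 and at 3864 against 870.

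The defence list held genes at opposite ends. Of 15 tested, 8 were higher, against 13.4% of all genes. The 6 that were lower (5 with the median of ratios) are near the 42.0% of all genes. Lypd8, a protein that keeps flagellated bacteria off the surface, was at 28781 CPM against 9134 and was the most abundant of them. Reg3b and Reg3g, antibacterial lectins, were at 28.8 against 1146 and at 8.01 against 153. Pigr, which carries immunoglobulin A across the cell, was at 682 against 2035. Nos2, the inducible nitric oxide synthase, rested on 20 UMIs in 9.68% of the cells.

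Interferon-induced genes were high in cluster 12. Of 12 on the list, 10 were at least 2-fold higher than in the other normal cells and 1 was lower, with a median log2 ratio of 2.40. Isg15, a ubiquitin-like modifier, was at 3242 CPM against 332 and had a UMI in all 93 cells. After thinning 95.4% of them held one, against 21.7% in cluster 0. In cluster 3, the normal cluster most like cluster 12, the share was 63.3% after thinning and 95.3% before. The lowest cell of cluster 12 was at 177 CPM, the median cell at 2655 and the highest at 14866. Irf7, a transcription factor of the response, was at 1687 against 237, and Ifit1, which binds foreign RNA, at 947 against 87.9. Zbp1, a sensor of nucleic acids, was at 280 against 50.5. The chemokine Cxcl10 was at 6.41 (4 UMIs) against 26.3. Of 9 genes tested on a list of MHC class II and antigen presentation, 6 were higher and 0 were lower. The 6 were all 5 genes of the class I pathway on the list and the class II gene H2-Ab1 (22.4 against 9.33 CPM, in 4.30% of the cells). The other 3 class II genes tested stayed under 2-fold, such as Cd74 at 106 against 61.7 in 7.53% of the cells. H2-K1, a class I heavy chain, was at 5057 against 1050 and B2m, its light chain, at 3486 against 1036.

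Promoters were searched for GAAA, any pair of bases (NN) and GAAA in a row, a core of the interferon-stimulated response element, on both strands from 250 bases before to 50 bases after each RefSeq start (GRCm38.p6). The sites are shown because interferon genes were high in cluster 12 and, as given further on, low in cluster 7 of the DSS library. The letters were found for 7 of the 10 interferon list genes that had an entry (70.0%), for 3 of 16 leading genes (18.8%) and for 1079 of 27025 genes in all (3.99%). Capitals mark the match, which reads TTTC, NN and TTTC where it lies on the opposite strand. Each window is 5′ to 3′ along its gene and holds 30 bases. Isg15 held 3 overlapping matches and Ifit1 held 2, and the one farthest from the start is shown for each. The Isg15 window lies at chr4:156200877-156200906 (minus strand), that of Ifit1 at chr19:34640775-34640804 (plus), that of Gbp2 at chr3:142620594-142620623 (plus), that of Igtp at chr11:58199512-58199541 (plus) and that of Cxcl10, the list member that was lower, at chr5:92349083-92349112 (minus).
Isg15: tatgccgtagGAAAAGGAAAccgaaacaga
Ifit1: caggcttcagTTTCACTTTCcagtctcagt
Gbp2: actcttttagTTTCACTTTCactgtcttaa
Igtp: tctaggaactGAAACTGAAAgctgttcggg
Cxcl10: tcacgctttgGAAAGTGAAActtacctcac
A match in this window is a description of the letters and is no evidence that a factor binds there.

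The cells of cluster 12 were not uniform. After thinning to 2000 UMIs (87 cells), the variance of a gene over its mean had a median of 1.10 across 1307 genes of at least 100 CPM. Malat1 stood highest at 28.1, and its level ran from 0 to 99202 CPM per cell. Fabp2 followed at 10.2, with a median cell at 2163 CPM and the highest at 26516. Mt1, a metallothionein, was at 9.99 and was detected in 47.3% of the cells. Ifi27l2a, an interferon-induced gene, was at 8.08, with 51.6% of the cells holding a UMI and the highest cell at 13008 CPM. Lypd8 (9.02), Saa1 (8.90) and Phgr1 (8.06) varied in level while being present in every cell. Saa1 ran from 1770 through a median of 9122 to 32143 CPM. The remaining genes among the 10 most variable were mt-Co1, mt-Co3 and Car1. For a given relative spread this ratio grows with the mean, so the ranking favours abundant genes. The thinned mean was 90.3 UMIs for mt-Co1 (ratio 9.65) and 1.57 for Mt1. The ratios were not adjusted for the mean, and no other cluster was set beside them.

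The 63 genes of the regenerative up-list that the study compiled from published injury models, DSS colitis among them, were also examined. Of 53 tested, 26 were at least 2-fold higher in cluster 12 than in the other normal cells and 12 were lower (median log2 ratio 0.77). Of 45 tested genes of the corresponding down-list, 4 were higher and 31 were lower (median log2 ratio -1.85). The summed level of the list was nevertheless higher in cluster 12, at 8556 CPM against 4349. Car4, a leading gene of cluster 12 that is on this list, made up 5134 of the 8556 and 219 of the 4349. Among revival stem cell markers, Clu rested on 1 UMI, while Anxa1 was at 477 CPM against 229 and Ly6a at 2416 against 1130. Ly6a was at 2765 CPM in the nearest normal cluster described next. Of 11 genes of cell death and shedding, 4 were higher and 2 were lower (7 and 1 with the median of ratios), and Gsdmd, a pore-forming gasdermin, was at 303 against 62.1. Of 17 genes of dissociation stress, 0 were higher and 7 were lower (5 with the median of ratios), the latter near the 42.0% of all genes.

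Among clusters with at least 20 normal cells, the one most like cluster 12 in the normal library was cluster 3, with 274 cells (Spearman correlation across genes 0.820, with cluster 6 next at 0.741). Genes are not independent replicates, so the correlation is a description. The 8 normal cells of cluster 7 were too few to be ranked, and held some leading genes at higher levels than cluster 3, such as Aqp8 (506 against 48.3 CPM) and Saa1 (9556 against 1003). Of 7081 genes tested between them, 11.3% were at least 2-fold higher in cluster 12 and 30.7% lower (median log2 ratio -0.37, with the other scaling differing by -0.35). Surface markers were higher in 9 of 14 cases and lower in 0. Crypt colonocyte markers were higher in 0 of 8 and lower in 4. Aqp8 was at 48.3 CPM in cluster 3, Duox2 at 20.9, Slc34a2 at 9.62, Duoxa2 at 40.5 and Atp12a at 27.0. All 5 were among the 10 largest ratios.

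Genes that cluster 3 expressed and cluster 12 nearly lacked included 3 gasdermins and 3 genes of detoxification. Gsdmc4 was at 1476 CPM in cluster 3 and 25.6 in cluster 12, Gsdmc2 at 589 and 8.01, and Gsdmc3 at 143 and 1.60. Gasdermins of this kind form pores when cleaved, and their 3 sequences are alike, so reads may be shared among them. Aqp4 was at 990 and 4.81, and Pycard, the inflammasome adaptor, at 460 and 6.41. The detoxification genes Mgst1, Gstm1 and Sult1a1, with the oxidase Hao2 and the desaturase Scd2, were at 109 to 537 in cluster 3 and at 3.20 to 14.4 in cluster 12. Interferon genes were higher than in cluster 3 in 8 of 12 cases and lower in 1, and their summed level was 6952 CPM against 2194. Markers of other cells also lay above cluster 3, with goblet markers summing to 497 against 286 CPM and T cell markers to 70.5 against 3.15 CPM, and the part of free RNA or doublets in these was not tested.

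The question of which DSS cluster holds the counterpart was put in 3 ways. The first was the correlation of the summed profile of the 93 normal cells with each cluster that had at least 20 DSS cells, over 8003 genes. Cluster 17 (57 DSS cells) reached 0.820, cluster 7 (139 cells) 0.819, cluster 9 (108 cells) 0.805 and cluster 6 (157 cells) 0.765. The next cluster was at 0.633. The clusters to set beside this are the other 3 with at least 20 normal cells but at most 2 DSS cells. Their highest correlation with a DSS cluster was 0.914 for cluster 3, 0.916 for cluster 14 and 0.886 for cluster 19. All 3 were above the 0.820 of cluster 12. The 7 clusters with at least 20 cells in both libraries give only a check of the measure, since the deposited clustering had already joined their cells. Their own number led for 6 of the 7.

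The second measure was the 10 nearest DSS cells of each normal cell of cluster 12 in 20 principal components. Cluster 7 held 45.2% of these 930 places, cluster 9 held 23.5% and cluster 17 held 15.1%. The share of cluster 17 was 1.08% with 10 principal components and 3.55% without interferon genes. The DSS cell of cluster 12 itself was a neighbour of 70 of the 93 cells (7.53% of the places), and the lone DSS cell of cluster 3 was a neighbour of 49. The places were filled by 52 different DSS cells, of which 22 belonged to cluster 7 and 6 to cluster 17. In the other clusters with few DSS cells, the leading DSS cluster held 31.4% of the places for cluster 3, 32.9% for cluster 14 and 80.0% for cluster 19.

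For the third measure each DSS cell was given to the normal cluster whose profile it correlated with best, among clusters with at least 20 normal cells. Clusters 7, 9 and 17, with 8, 2 and 0 normal cells, were not on offer. A match of their cells to cluster 12 is thus a choice among the other profiles only. Of the 1933 DSS cells, 268 were given to cluster 12. They made up 128 of the 139 cells of cluster 7 (92.1%, exact binomial 95% interval 86.3 to 96.0), 67 of 108 in cluster 9 (62.0%, 52.2 to 71.2) and 21 of 57 in cluster 17 (36.8%, 24.4 to 50.7). More cells of cluster 17, 36 of the 57, were given to cluster 6. The counts matched to cluster 12 moved with the settings beyond their intervals. Without the cells of highest doublet score 53 cells of cluster 17 were matched, and with Pearson's measure 47 cells of cluster 7. In cluster 22, which is shallow (median 1570 UMIs), 14 of 21 were matched, and in cluster 15 (median 3291 UMIs) 13 of 66. The summed profiles of these clusters had correlations of only 0.468 and 0.480 with cluster 12. The 52 matched cells outside clusters 7, 9 and 17 had a median of 2088.5 UMIs, against 15418.5 in those 3 clusters, and the part of depth in their match was not tested.

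**Figure D2:**
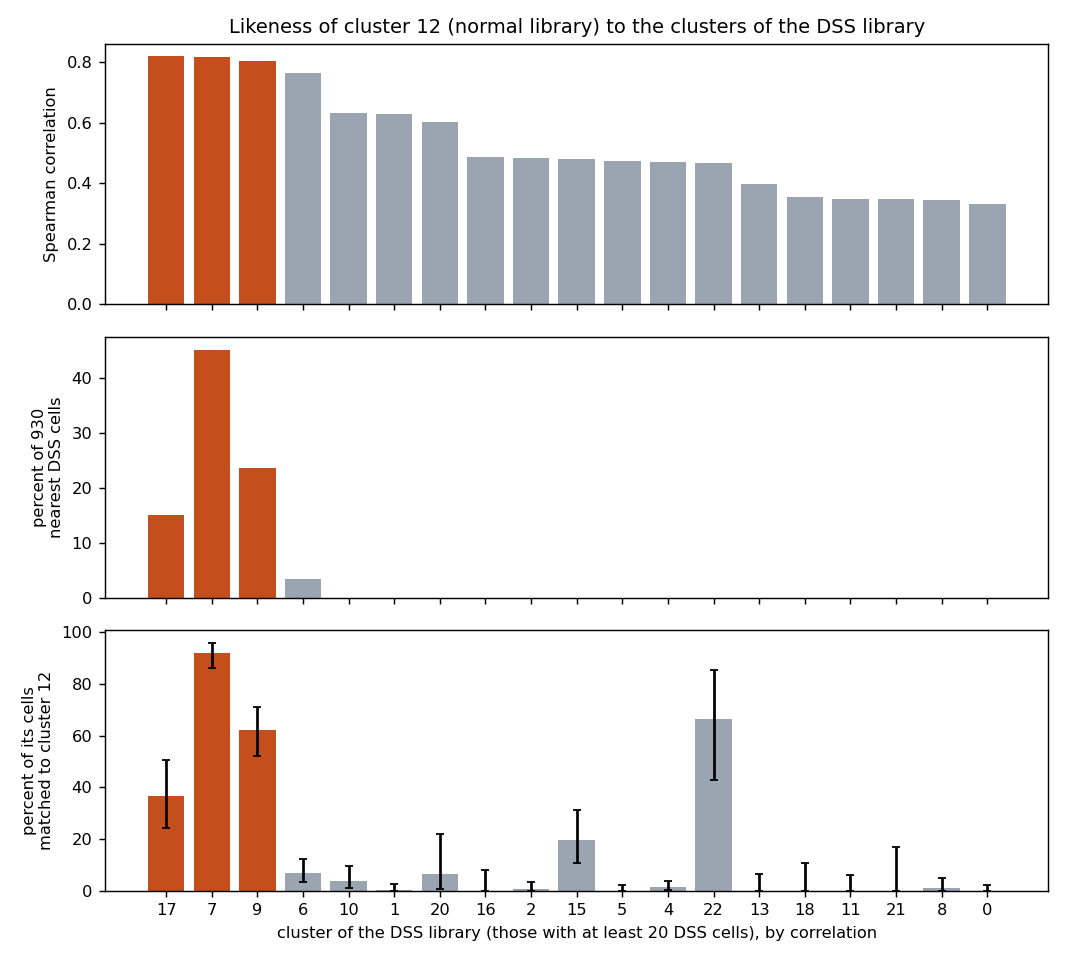
Likeness of the 93 normal cells of cluster 12 to each cluster of the DSS library with at least 20 DSS cells, by Spearman correlation of summed profiles (top), share of the 930 nearest DSS cells (middle) and share of a cluster's cells matched to the cluster 12 profile (bottom, with exact binomial 95% intervals). Clusters 17, 7 and 9, in orange, lead the correlation, and cluster 7 leads the other panels at 45.2% and 92.1%.

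Cluster 7 led by nearest cells and by matched cells and was next to cluster 17 by correlation, so it was taken as the leading DSS cluster, a choice made with these values known. The order of the 3 clusters was not stable. With cells thinned to 2000 UMIs, cluster 9 held the largest share of the nearest cells (43.6%) and cluster 7 held 27.7%. Thinning left out shallower cells, 13 of the 139 DSS cells in cluster 7, 4 of 108 in cluster 9 and 25 of 57 in cluster 17. Clusters 7, 9 and 17 had 8, 2 and 0 cells in the normal library.

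The leading genes were shared out unequally among the 3 DSS clusters. In cluster 7, 6 of the 20 were within 2-fold of their level in cluster 12 or above it, namely Atp12a, Cyp2d9, Saa1, Tmem37, Slc15a1 and Selenop. Cluster 17 had 8 and cluster 9 had 1. Over all 7137 genes compared with cluster 7, 10.9% were at least 2-fold higher in cluster 12. The 20 genes were chosen for high levels in cluster 12, so lower levels elsewhere are in part set by that choice. Aqp8 was at 1212 CPM in cluster 7, 589 in cluster 17 and 228 in cluster 9, against 115 over all DSS cells. It was at 3060 CPM in cluster 12, for which it was chosen. Saa1 was at 8968 in cluster 7, 16286 in cluster 17 and 1709 in cluster 9. Atp12a was at 460 in cluster 7, and at 8.22 and 5.31 in clusters 9 and 17. Cpn1, the catalytic chain of carboxypeptidase N, was at 382 in cluster 17, close to the 340 of cluster 12, and at 8.26 in cluster 7. The 20 genes summed to 26209 CPM in cluster 17, 14944 in cluster 7 and 4473 in cluster 9. Saa1 alone made up 16286, 8968 and 1709 of these sums. Cluster 17 was shallow, with a median of 2466 UMIs per cell.

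**Figure D3:**
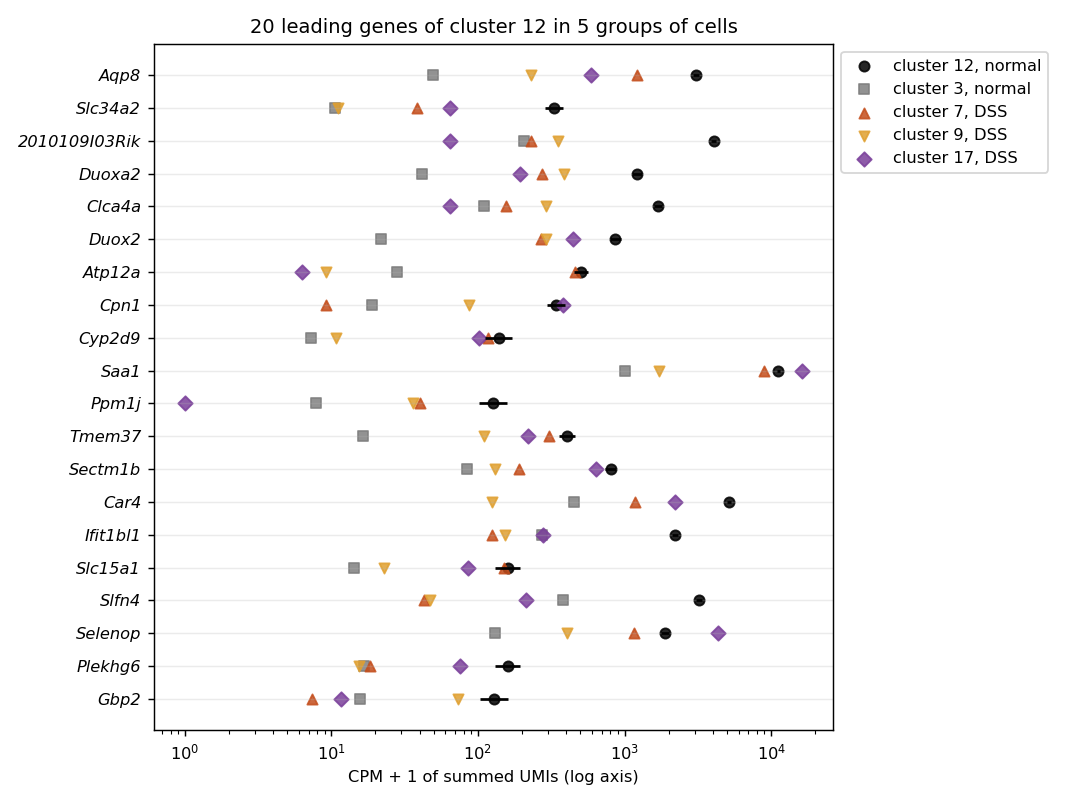
Levels of the 20 leading genes as CPM + 1 of summed UMIs on a log axis, in cluster 12 and cluster 3 of the normal library and in clusters 7, 9 and 17 of the DSS library; bars on cluster 12 are exact Poisson 95% intervals. Atp12a and Slc15a1 of cluster 7 overlie cluster 12, and Cpn1 is near it in cluster 17 only. Cluster 3 lies below cluster 12 for all 20, which is no contrast, because the genes were chosen against normal cells that include cluster 3.

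A pair of regional genes, picked from a longer list after their values were seen, varied widely among the 3 DSS clusters. Hoxb13, a factor of the distal colon, was at 330 CPM in cluster 12, 401 in cluster 7, 32.1 in cluster 9 and 5.31 in cluster 17. Osr2 ran the other way, at 1.60, 4.59, 23.5 and 271. The Osr2 level of cluster 12 rests on 1 UMI. Of 9 regional genes tested against the other normal cells, 1 was higher in cluster 12 (Hoxb13) and 3 were lower, which is near the shares of all genes (2 and 1 with the median of ratios). Against the DSS cells of cluster 7, 0 of 9 were higher and 1 was lower. The antibacterial lectin Reg3b was at 28.8 CPM in cluster 12, 538 in cluster 7, 7333 in cluster 9 and 20059 in cluster 17.

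Cluster 12 and the DSS cells of cluster 7 were then compared gene by gene. Of 7137 genes, 10.9% were at least 2-fold higher in cluster 12 and 30.3% were lower (median log2 ratio -0.39, with the median of ratios differing by -0.37). Of 12 interferon genes, 10 were higher in cluster 12 and 0 were lower, with a median log2 ratio of 3.63. Isg15 was at 3242 CPM (3103 to 3387) against 47.2, Irf7 at 1687 against 62.4 and Ifit1 at 947 against 19.7. Their summed level was 6952 CPM against 336. Outside the list, Slfn4 was at 3202 against 41.7, Ifi27l2a at 976 against 1.83, Slfn2 at 413 against 1.83, Apol9a at 508 against 4.59, Apol9b at 290 against 0.917 and Oas3 at 250 against 2.29. These 6, with Isg15, Xist, St3gal1 and Mptx1, had the 10 largest ratios. Xist differed throughout the libraries, as given above. Mptx1, which is abundant in other normal cells (7514 CPM), was at 127 against 0.459. Mptx1 and Ifi27l2a were also higher in the normal than in the DSS cells of clusters 0, 1, 2, 5 and 6. In cluster 5 they were at 25957 against 764 CPM and at 85.1 against 4.34. Slfn4 was higher in clusters 0, 1, 2 and 6 (48.2 against 3.04 in cluster 0) and lower in cluster 5 (22.5 against 28.4). Slfn2 was lower in cluster 0 (69.7 against 79.1). Antigen presentation genes were higher in 5 of 9 cases and lower in 0, with B2m at 3486 against 555.

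The 7 clusters with at least 20 cells in both libraries are set beside this for the summed interferon genes. The normal and DSS cells were at 908 and 806 CPM in cluster 0, 281 and 198 in cluster 1, 254 and 212 in cluster 2, 275 and 213 in cluster 5, 615 and 489 in cluster 6, 344 and 226 in cluster 13, and 1422 and 1107 in cluster 11. The 8 normal cells of cluster 7 were at 683 CPM, against 336 for its DSS cells. DSS clusters 9 and 17 were at 744 and 1958. The DSS cell of cluster 12 was at 9397 CPM, above the 93 normal cells together, with Isg15 at 4072 CPM. That cell held 9578 UMIs, 14 of them from Aqp8, and 0 from Slc26a3. Isg15 alone differed more than the sum in several of the 7 clusters. Its normal and DSS levels were 139 and 105 CPM in cluster 0, 33.8 and 13.8 in cluster 1, and 36.6 and 5.54 in cluster 2. They were 36.0 and 3.77 in cluster 5, 115 and 58.9 in cluster 6, 350 and 216 in cluster 11, and 52.8 and 3.81 in cluster 13.

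At the other end, 10 genes were nearly absent from cluster 12 and present in DSS cluster 7. Clca4b, a paralogue of Clca4a with which reads may be shared, was at 3.20 CPM against 1015, while Clca4a itself was at 1685 against 154. Slpi, a secreted protease inhibitor, was at 0 UMIs against 189 CPM, and Wfdc18 at 1.60 against 414. S100a9, a neutrophil protein, was at 0 UMIs against 106 CPM, and the 8 neutrophil markers summed to 234 CPM in cluster 7 and to 0 in cluster 12. S100a9 was at 1388 CPM over all DSS cells and had 0 UMIs in the normal library, and the part of free RNA in its level in cluster 7 was not tested. Gsdmc4, Pycard, Scd2, Mgst1, Gsta1 and Aqp4 completed the 10. Of these, Gsdmc4, Pycard, Scd2, Mgst1 and Aqp4 were also among the 10 lowest against cluster 3 of the normal library. Surface markers were higher in cluster 12 in 8 of 14 cases and lower in 1. Lypd8 was at 28781 CPM in cluster 12 and 36095 in cluster 7.

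**Figure D4:**
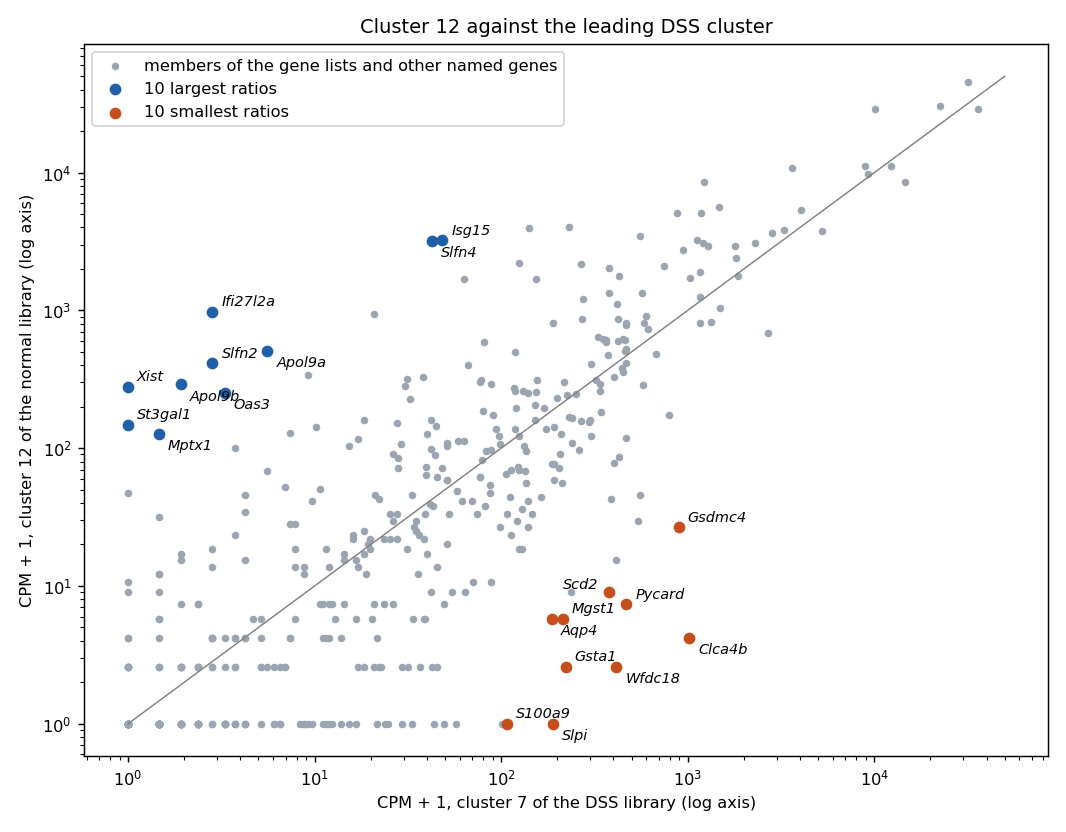
Levels in the 93 normal cells of cluster 12 against the 139 DSS cells of cluster 7, as CPM + 1 on log axes, for list members and other named genes (grey), the 10 largest ratios (blue) and the 10 smallest (orange). The diagonal marks equal levels. Interferon-induced genes such as Isg15 (3242 against 47.2 CPM) lie far above it and Clca4b (3.20 against 1015) far below.

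Kept cells had at most 20% mitochondrial UMIs, and cluster 12 reached 19.8%, so the barcodes that the authors left out were also examined. Among barcodes with at least 500 non-mitochondrial UMIs, 1961 were left out of the normal library (median 46.3% mitochondrial) and 2446 of the DSS library (50.9%). Levels were taken as CPM of the non-mitochondrial UMIs. By the sum of the 14 surface markers, 985 left-out barcodes of the normal library (50.2%) and 398 of the DSS library (16.3%) were at or above the lowest cell of cluster 12. Of the 985, 979 were over 20% mitochondrial, as were 389 of the 398. A high mitochondrial share is a usual mark of damaged cells, and its part in these levels was not tested.

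These barcodes were chosen 1 by 1 for a sum of surface markers at or above that of the lowest cell of cluster 12. Their likeness to it is in part set by the choice and cannot be ranked against whole clusters. They are therefore set beside the 167 kept DSS cells outside cluster 12 that passed the same bound (43970 CPM). The sum leaned on abundant markers. In the left-out DSS barcodes Lypd8 was at 33976 CPM and Saa1 at 15789, with Guca2a at 4012 and Car4 at 2518. In the kept DSS cells at the bound, that of cluster 12 included, these were at 44971, 12027, 1917 and 1495. Without mitochondrial genes, the summed profile of the 398 left-out DSS barcodes had a Spearman correlation of 0.906 with cluster 12, and that of the 167 kept DSS cells 0.865. In the normal library the 985 left-out barcodes were at 0.963 and the 106 kept cells of other clusters at 0.890. These values are no contrast, because the clustering had already placed the 106 outside cluster 12 and had not sorted the 985. Of the 16 leading genes that are no surface markers, 11 were within 2-fold of cluster 12 or above it in the left-out DSS barcodes and 5 in the kept DSS cells. In the normal library 16 were so in the left-out barcodes. No such count is set beside them for the kept normal cells, in which these genes are low by the rule that chose them. The share of all genes within this bound was not taken for these groups. The left-out DSS barcodes were shallower than the kept cells beside them (a median of 4773 against 12618 UMIs) and had a median of 43.4% mitochondrial UMIs, where kept cells had at most 20%, and the part of these in the difference was not tested. Duox2 was at 919 CPM in the DSS barcodes and 1051 in the normal ones, and Duoxa2 at 989 and 1219. Aqp8, a marker used in the choice, was at 1718 and 2129.

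Differences between the libraries remained in these barcodes. Of 7483 genes, 3.22% were at least 2-fold higher in the normal barcodes and 11.3% in the DSS barcodes. The 10 genes with the largest ratios of cluster 12 over cluster 7 were all at least 2-fold higher in the normal barcodes. Isg15 was at 2402 CPM against 494, Ifi27l2a at 1011 against 45.1 and Slfn4 at 2828 against 363. Of the 12 interferon list genes, 4 were at least 2-fold higher and 0 lower, and their sum was 6304 against 2484. Of the 20 leading genes, 5 were higher and 1 was lower. Of the 10 genes with the smallest ratios, 6 were lower in the normal barcodes and 2, Gsdmc4 and Aqp4, were higher. Clca4b was at 7.71 against 1261, Slpi at 0.497 against 92.9 and Wfdc18 at 2.49 against 197. These are the same libraries as in the comparison above, so they are no independent check of it.

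**Figure D5:**
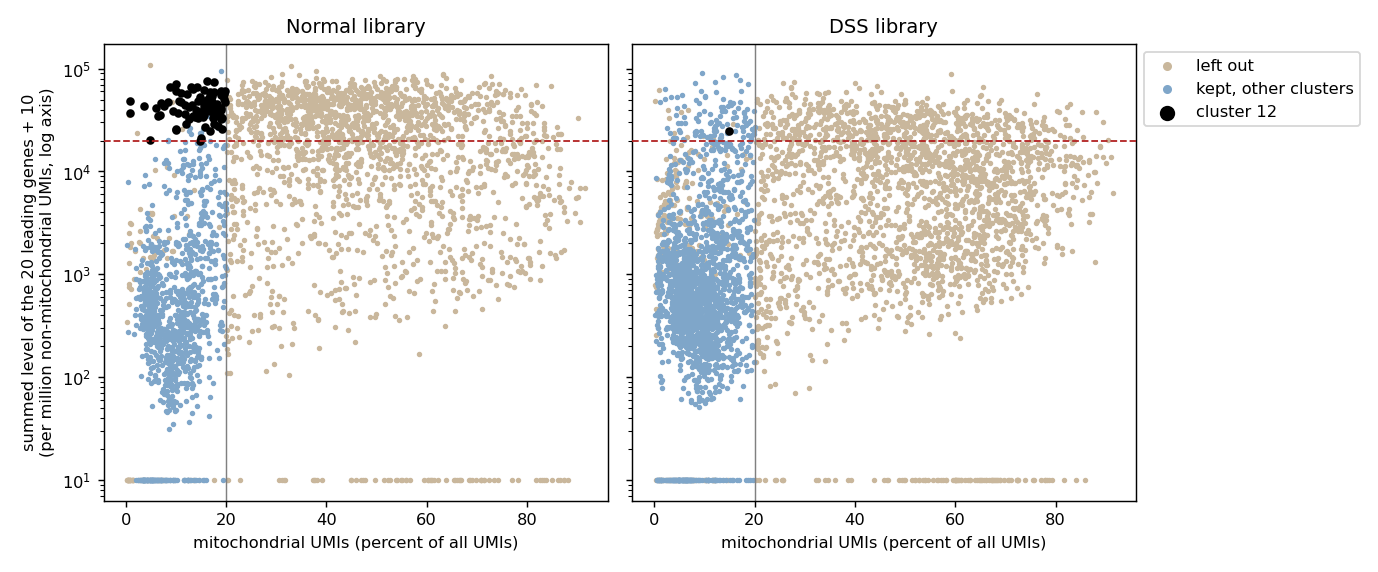
Summed level of the 20 leading genes per barcode (log axis, 10 added, so barcodes without a UMI of them sit at 10) against the percent of mitochondrial UMIs, for the normal and the DSS library. The grey line marks 20% mitochondrial and the dashed line the lowest cell of cluster 12; above it lie 943 left-out barcodes of the normal library and 542 of the DSS library, mostly to the right of the grey line.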

How the data were processed

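Libraries were made with a 10x Genomics 3′ kit. The authors counted reads with Cell Ranger 3.0.0 against mm10 and clustered in Seurat 3.1.4, as the submitters' processing notes name them. The deposited values are raw UMI counts per gene and cell, and the deposited annotation gives the clusters. The study's methods state, for 8 single-cell samples, a minimum of 1500 genes and at most 25% mitochondrial reads, whereas kept colonic cells had at least 548 (normal) and 501 (DSS) genes and at most 20% mitochondrial UMIs. The authors' kept cells were used. Their deposited table and the deposited matrices differed in 0 entries over 23775 genes. Every sample column was mapped (0 left over).

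Groups were taken from the sample labels. With 1 library per condition no test was made. Summed counts were scaled to CPM, log2 ratios used a pseudocount of 1 CPM, and genes under 10 CPM in both groups were left out. Intervals are exact Poisson or Clopper-Pearson at 95%. Leading genes were the 20 largest ratios among genes of at least 100 CPM with a UMI in at least 25% of the cells, the lowest genes were the 10 smallest ratios among genes of at least 100 CPM in the other cells, and the comparisons with cluster 3 and cluster 7 named 10 genes each way. The 10 genes of highest variance over mean and list members were also named. Neighbours used 2000 variable genes and 20 principal components (scanpy 1.11.5, scikit-learn 1.9.0). The code was tested on simulated data. Scrublet marked 6 normal (0.530%) and 5 DSS cells (0.259%) as doublets, and they stayed in. The libraries shared 42 barcodes, 2 of them kept. Coordinates are from GENCODE M21.

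The members, gene lists and comparisons were chosen with earlier results of these data known. Cluster 7 as the leading DSS cluster and the examination of left-out barcodes, with its thresholds and the kept cells set beside them, were chosen after their values were seen. Mptx1 beyond its rank, S100a9 over all DSS cells and the Lypd8 level in cluster 7 were also added after values were seen.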

Additional observations from a re-analysis of the deposited data

Results flagged for a closer look

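The barcodes that the authors left out held cluster 12 genes in both libraries, and they enter none of the comparisons of clusters. The lowest cell of cluster 12 held the 20 leading genes at 19809 CPM of its non-mitochondrial UMIs. In the normal library 943 of 1961 left-out barcodes were at or over that level (48.1%, exact binomial 95% interval 45.9 to 50.3). The 15 of 1039 kept normal cells of other clusters that reached it are no contrast, because the 20 genes were chosen for being low in those cells. In the DSS library 542 of 2446 left-out barcodes were (22.2%, 20.5 to 23.9), against 110 of 1932 kept cells of other clusters. Of the 943, 936 had over 20% mitochondrial UMIs, and of the 542, 530 did. With kept and left-out barcodes together, 34.0% of the normal and 14.9% of the DSS barcodes reached the level. The share of cluster 12 among kept cells, 8.22% and 0.0517%, was taken by cluster label and not by this level. It is an unlike measure, since 15 normal and 110 DSS kept cells of other clusters also reached the level. The part of the mitochondrial bound in the difference between the libraries was not tested. The sum of the 20 genes leaned on Saa1. In the 398 left-out DSS barcodes chosen by surface markers, Saa1 made up 15789 of 30692 CPM. In the 985 normal ones it made up 8201 of 31406.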

How the results depend on the processing

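Of 41 alternative values, 25 stayed within the bounds set for a change (for a count, 1.5 times) and 16 moved beyond them. Among the 25, the Spearman correlation with a pseudocount of 10 CPM could not move, because ranks do not depend on the pseudocount. A change of direction was not scored. With a pseudocount of 10 CPM, 190 genes were at least 4-fold higher and 616 lower. With the median of ratios 641 were higher, and with no filter on low values 2859 were lower. Cluster 7 gave the highest correlation in place of cluster 17 with Pearson's measure (0.823), without mitochondrial, ribosomal protein and stress genes (0.814), with cells of at least 1500 genes (0.812, where cluster 17 fell under 20 cells), without interferon genes (0.832) and after thinning to 2000 UMIs (0.766). The nearest cells in the leading cluster were 66.3% with 10 and 40.5% with 40 principal components, 51.0% without interferon genes, and 43.6% after thinning, then in cluster 9. With genes of at least 100 CPM cluster 17 led clearly (0.820, with cluster 7 at 0.758 and cluster 9 at 0.735). Cluster 17 held 1.08% of the nearest cells with 10 principal components and 3.55% without interferon genes. Matched DSS cells changed from 268 to 71 with Pearson's measure (47 in place of 128 in cluster 7), to 147 after thinning and to 366 without the cells of highest doublet score (53 in place of 21 in cluster 17). Within 2-fold in cluster 9 was 1 leading gene. The alternatives without interferon genes, the thinned correlation and the other clusters were chosen after seeing the data. The cause of these changes was not tested. No paired analysis was possible because each condition had 1 library. Depth limits genes at 0 UMIs in cluster 12 to levels up to 4.81 CPM (3 UMIs).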
